A study of Xenopus laevis with 8 samples.

Results

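The genes described here encode the receptors and the intracellular transducers of the TGF-β family. They were chosen by symbol alone, as all identifiers of the count table that name a Smad, an activin, BMP or TGF-β receptor, a Smurf ubiquitin ligase or a Ski co-repressor, which gave 47 of 49086 genes. *X. laevis* is allotetraploid, and most symbols have 2 entries, a .L and a .S homeolog. The 47 genes comprised 12 type I receptors, 9 type II receptors, 1 co-receptor, 8 receptor-activated Smads, 4 common Smads, 6 inhibitory Smads, 3 Smurf genes and 4 Ski genes. Of these, 43 passed the filter on low counts, among 25448 genes in all. The other 4 were *smad6.2.S*, *acvr1c.L*, *acvrl1.L* and *acvrl1.S*, and none of them reached more than 4 counts in any library. *acvr1c.L*, a Nodal receptor, had 3 counts in 1 M/Z and 1 count in 1 +/Z library at stage 9, *acvrl1.L* had 1 count in 1 M/Z library at stage 10.5 and 1 and 4 counts in the +/Z libraries at stage 9, and *acvrl1.S* was at 0 in every library.

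RNA of whole embryos was sequenced from late blastulae (stage 9) and from gastrulae (stage 10.5). M/Z embryos came from eggs of *wnt11b* homozygous mutant females. +/Z embryos came from eggs of wild-type females. Both crosses used sperm of *wnt11b* mutant males, so M/Z embryos lacked the maternal and the zygotic wild-type copy and +/Z embryos were heterozygous. The allele is a small frameshifting deletion near the end of exon 1 of *wnt11b.L*, recovered from CRISPR/Cas9 mutagenesis. Each of the 4 groups had 2 libraries, each from a pool of 3 embryos. The mother and the genotype differed together and cannot be told apart here, and the females and clutches behind the pools are not named, so p-values measure the spread between pools. In whole embryos, fewer cells of a type and less RNA per cell cannot be told apart either.

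In the TGF-β family, a dimeric ligand brings together type II and type I receptor kinases, and the type II kinase activates the type I kinase. The type I kinase then phosphorylates receptor-activated Smads, which join Smad4 and enter the nucleus. Smad2 and Smad3 carry activin, Nodal and TGF-β signals, and Smad1 and Smad9 carry BMP signals. Smad6 and Smad7 are inhibitory, Smad6 mainly on the BMP branch and Smad7 on both branches. Smurf1 and Smurf2 mark receptors and Smads for degradation, and Ski and SnoN (*skil*) repress Smad targets in the nucleus. In the *Xenopus* blastula and gastrula, Nodal signals pattern the mesoderm and endoderm, and a BMP gradient patterns the dorsal-ventral axis.

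Total counts ranged from 24720921 to 37265579 per library, and the floor of 3 counts corresponded to 0.0715 to 0.136 CPM (counts scaled to a common library size, with TMM factors). Counts of *wnt11b.L* were between 1307 and 1915 in M/Z libraries and between 789 and 1883 in +/Z libraries. Since the deletion is small, these counts do not check the genotype. Of 11 blastula and gastrula markers looked up by symbol, *tbxt* and *sox17b* had no listed copy. All 16 listed copies of the others were above the floor in their highest library. Their summed level at stage 9 was 696 to 822 CPM in M/Z and 952 to 1060 CPM in +/Z embryos. At stage 10.5 it was 2790 to 4120 CPM in M/Z and 4150 to 4590 CPM in +/Z embryos, so it was lower in M/Z at both stages. Of 17 listed copies of genes of other tissues, 4 were above the floor in their highest library and 8 were at 0 in every library. The latter include the globin genes *hba3.L*, *hbg1.L*, *hbd.S* and *hbd.L*. The summed level of that list was 5.86 to 8.05 CPM in M/Z and 3.97 to 4.06 CPM in +/Z embryos at stage 9, and 4.90 to 5.36 CPM in M/Z and 3.06 to 3.95 CPM in +/Z embryos at stage 10.5. Its part in the results was not tested.

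Few of these genes were called different in M/Z embryos relative to +/Z embryos. At stage 9, *smurf1.L* and *smad6.S*, which encode 2 negative regulators of the pathway, were higher in M/Z embryos. At stage 10.5, *smurf1.L* and *tgfbr2.S* were higher and *acvr1b.S* was lower. Over the mean of both stages, 6 genes were higher in M/Z embryos (*smurf1.L*, *smad6.S*, *smad7.S*, *smad3.L*, *bmpr1b.S* and *tgfbr2.S*) and none was lower. With *edgeR*'s quasi-likelihood test and Benjamini-Hochberg adjustment over all genes tested, at a threshold of 0.05, 2 of 43 genes (4.65%) were called at stage 9, against 11.9% of all genes, with 6.01% of genes higher in M/Z embryos and 5.93% lower. At stage 10.5, 3 of 43 (6.98%) were called, against 13.1% of all genes, with 6.68% higher and 6.39% lower. Over the mean of both stages the count was 6 of 43 (14.0%), against 24.0% of all genes, which divided evenly between higher and lower. The share called was below that of all genes in these 3 comparisons, but not under every alternative below.

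The median log2 fold change of the 43 genes was 0.02 at stage 9 and 0.17 at stage 10.5, beside 0.00 and 0.02 over all genes. Scaling by library totals without the composition factor moved the median of all genes by 0.09 at stage 9, by 0.19 at stage 10.5 and by 0.14 over the mean of both. Changes below are relative to the composition-corrected scale. Under library totals, 70.5% of all calls at stage 10.5 were higher in M/Z embryos, against 51.1% with TMM, and 7 of the 43 genes were then called, all of them higher, against 14.8% of all genes. Without the filter on low counts, 7 of 46 genes were called at stage 9, against 11.4% of all genes, and 9 of 46 at stage 10.5, against 14.2%. *DESeq2* called 2 of 43 at stage 9, against 13.1% of all genes, and 5 of 43 at stage 10.5, against 15.7%. With only the 4 libraries of a stage in the fit, 12 genes were called at stage 9, where 31.0% of all genes were, and 1 at stage 10.5, where 5.08% were. The counts at single stages also changed when 1 library was left out, which leaves 1 library in a group. The share of all genes called in such fits is not given here, and whether these changes are particular to the 43 genes was not tested. Without any 1 of the stage 9 libraries, the stage 10.5 median of the 43 genes stayed at 0.17. At stage 9, no gene was called without M/Z replicate 1, without M/Z replicate 2 or without +/Z replicate 1, 1 was called without +/Z replicate 2, and 5 were called without either stage 10.5 +/Z library. At stage 10.5, no gene was called without M/Z replicate 2 or without +/Z replicate 2, 1 without any one of the stage 9 libraries, 5 without M/Z replicate 1 and 7 without +/Z replicate 1.

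**Figure D1:**
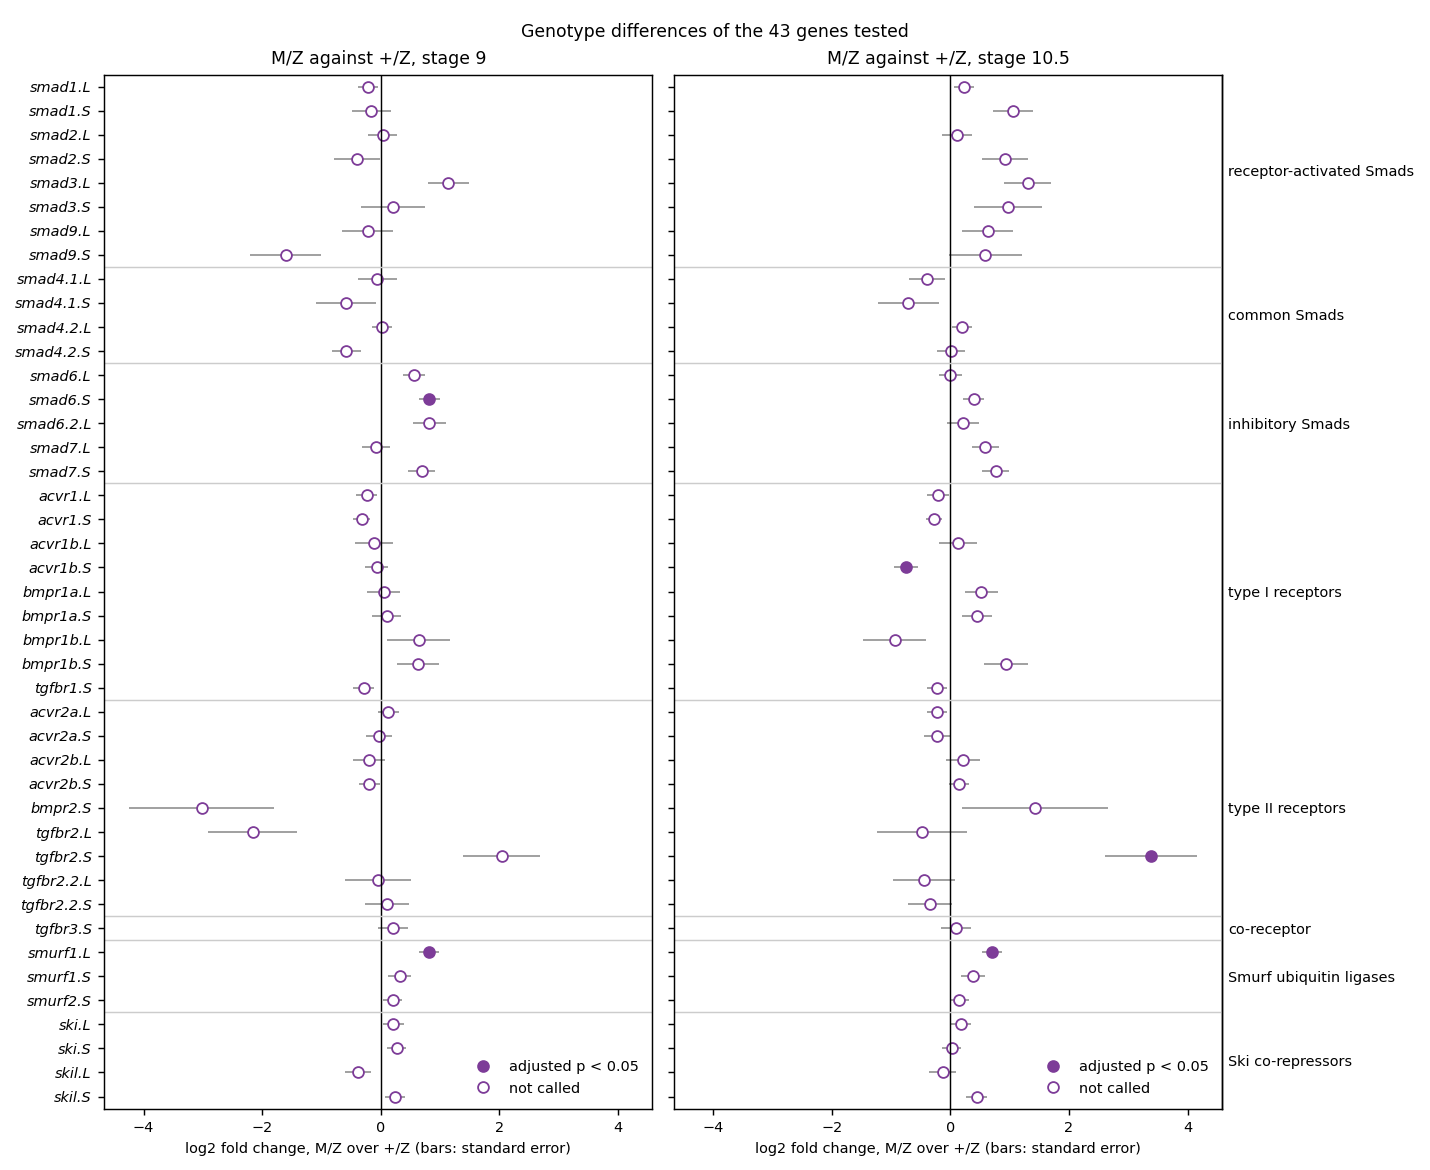
Log2 fold change of M/Z over +/Z embryos (horizontal axis) for each of the 43 genes tested, at stage 9 (left) and stage 10.5 (right), with bars for the standard error of the fit and filled points for an adjusted p under 0.05. Only *smad6.S* and *smurf1.L* are filled at stage 9, and *smurf1.L*, *tgfbr2.S* and *acvr1b.S* at stage 10.5. All 8 receptor-activated Smads lie right of 0 at stage 10.5.

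Among the type II receptors, *tgfbr2*, the receptor that binds TGF-β itself, gave the largest difference called between genotypes, at low counts. The *tgfbr2.S* copy had 84 and 62 counts in M/Z, against 5 and 20 counts in +/Z, at stage 9. The stage 10.5 counts were 43 and 46 in M/Z embryos, against 4 and 2 in +/Z embryos. Both M/Z libraries were above both +/Z libraries at each stage. *edgeR* gave a log2 fold change of 2.04 ± 0.65 (s.e.) at stage 9 (adjusted p = 0.072) and of 3.38 ± 0.78 at stage 10.5 (adjusted p = 0.022), and over the mean of both it was 2.71 ± 0.51 (adjusted p = 0.0043). The stage 10.5 call was lost without M/Z replicate 2 (3.29, adjusted p = 0.064) and without +/Z replicate 2 (3.09, adjusted p = 0.087).

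The homeolog *tgfbr2.L* ran the other way at stage 9, with 7 and 12 counts in M/Z, against 45 and 21 counts in +/Z. There the log2 fold change was -2.16 ± 0.75 (adjusted p = 0.098). The later counts were 10 and 14 in M/Z, against 20 and 5 in +/Z embryos, so the groups overlapped (-0.48 ± 0.76, adjusted p = 0.71). The .L share of *tgfbr2* counts was 7.69% and 16.2% in M/Z embryos at stage 9, against 90.0% and 51.2% in +/Z embryos, and 18.9% and 23.3% in M/Z at stage 10.5, against 83.3% and 71.4% in +/Z. With both copies summed, *tgfbr2* was not called at stage 9 (0.41 ± 0.46, adjusted p = 0.63), at stage 10.5 (1.42 ± 0.50, adjusted p = 0.092) or over the mean of both (0.92 ± 0.34, adjusted p = 0.08). *RSEM* divides reads that match both homeologs, and no sequence was used here to check that division.

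The other 7 type II copies were not called between genotypes. They include the activin and BMP receptors *acvr2a* and *acvr2b*, in whose 4 copies the log2 fold changes ran between -0.23 and 0.21 over both stages. *bmpr2.S*, a BMP type II receptor singled out after its values were seen, had 5 and 4 counts in M/Z, against 27 and 28 in +/Z embryos at stage 9, and 4 and 31 in M/Z, against 0 and 9 in +/Z embryos at stage 10.5. The 2 genotypes were apart at stage 9 (-3.02 ± 1.22, adjusted p = 0.15) and overlapped at stage 10.5 (1.43 ± 1.23, adjusted p = 0.47). The co-receptor *tgfbr3.S*, which presents TGF-β to its receptors, differed by 0.21 ± 0.25 at stage 9 and by 0.09 ± 0.25 at stage 10.5.

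Among the type I receptors, *acvr1b.S* was the only gene of the set called lower in M/Z embryos. It encodes Alk4, the type I receptor for activin and Nodal. Its level at stage 10.5 was 21.6 and 22.0 CPM in M/Z, against 29.9 and 43.3 CPM in +/Z embryos, which is 1.68-fold lower in M/Z (log2 fold change -0.75 ± 0.21, adjusted p = 0.042). At stage 9 it was 52.9 and 54.4 CPM in M/Z, against 53.9 and 58.5 CPM in +/Z embryos, and the groups overlapped (-0.07 ± 0.20, adjusted p = 0.88). The stage 10.5 groups did not overlap, but the call was lost under library totals (-0.55, adjusted p = 0.11) and without +/Z replicate 2, the highest library (-0.45, adjusted p = 0.20). It was also lost when any other library except +/Z stage 10.5 replicate 1 was left out, with log2 fold changes between -0.74 and -0.73 and adjusted p between 0.067 and 0.13.

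The same +/Z library was low for the homeolog *acvr1b.L*, with 10 CPM beside 21.0 CPM in the other +/Z library, and 16.1 and 18.0 CPM in M/Z embryos. The .L share of *acvr1b* counts was 42.6% and 45.0% in M/Z embryos at stage 10.5, against 41.2% and 18.8% in +/Z embryos. With the copies summed the difference was -0.42 ± 0.16 (adjusted p = 0.11). +/Z replicate 2 thus had the highest *acvr1b.S* and the lowest *acvr1b.L* level of the 4 stage 10.5 libraries, and the part of this in the *acvr1b.S* difference was not tested.

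The BMP type I receptor *bmpr1b.S* was 16.2 and 10.2 CPM in M/Z, against 6.67 and 10.4 CPM in +/Z embryos at stage 9, where the groups overlapped. At stage 10.5 it was 3.55 and 5.42 CPM in M/Z, against 2.03 and 2.68 CPM in +/Z. Over the mean of both stages the log2 fold change was 0.78 ± 0.25, at the edge of the threshold (adjusted p = 0.0499, *edgeR*). The call was lost when any library but M/Z stage 10.5 replicate 1 was left out (0.60 to 0.96, adjusted p 0.052 to 0.21). Its homeolog *bmpr1b.L* had 18 to 54 counts per library and log2 fold changes of 0.64 ± 0.53 at stage 9 and -0.94 ± 0.53 at stage 10.5, neither of which was called.

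The remaining 6 type I copies tested, of *acvr1*, *bmpr1a*, *tgfbr1* and *acvr1b.L*, were not called at either stage, with log2 fold changes between -0.32 and 0.52. *acvr1.L*, *acvr1.S* and *tgfbr1.S*, type I receptors for BMPs and for TGF-β, were the only genes of the set with both M/Z libraries below both +/Z libraries at each stage. That is 3 of 43 genes (6.98%), against 16.1% of all genes tested. Their log2 fold changes were small, between -0.32 and -0.21. *acvr1.S* came nearest to a call, with -0.30 ± 0.10 over the mean of both stages (adjusted p = 0.055).

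None of the 8 receptor-activated Smads was called at a single stage. *smad3.L*, a carrier of Nodal and activin signals, was 4.98 and 3.63 CPM in M/Z, against 1.97 and 1.95 CPM in +/Z, at stage 9. The stage 10.5 levels were 1.70 and 2.28 CPM in M/Z embryos, against 0.879 and 0.726 CPM in +/Z embryos. Both M/Z libraries were above both +/Z libraries at each stage. The log2 fold change was 1.14 ± 0.35 at stage 9 (adjusted p = 0.067) and 1.3 ± 0.39 at stage 10.5 (adjusted p = 0.0532). Over the mean of both it was 1.22 ± 0.26, a 2.33-fold difference (adjusted p = 0.0086, *edgeR*), and that call was lost without M/Z stage 9 replicate 1 (1.1, adjusted p = 0.056).

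Counts of the homeolog *smad3.S* were 45 and 34 in M/Z, against 25 and 25 in +/Z embryos at stage 9, and 36 and 31 in M/Z, against 19 and 6 in +/Z embryos at stage 10.5. In CPM its groups did not overlap at either stage, but at stage 9 they nearly touched. The levels there were 1.07 and 0.957 CPM in M/Z, against 0.806 and 0.955 CPM in +/Z embryos. The log2 fold changes of *smad3.S* were 0.21 ± 0.54 and 0.97 ± 0.57. The sum of both *smad3* copies was called over the mean of both stages (1.04 ± 0.25, adjusted p = 0.013).

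The 8 receptor-activated Smads are the .L and .S copies of *smad1*, *smad2*, *smad3* and *smad9*, so they are homeolog pairs and not 8 independent cases. At stage 10.5, all 8 had a log2 fold change above 0, with a median of 0.78, while 13025 of all 25448 genes were above 0. At stage 9 the log2 fold change was above 0 in 3 of 8, with a median of -0.19. The stage 10.5 values ran from 0.11 ± 0.25 (*smad2.L*) and 0.23 ± 0.17 (*smad1.L*) to 1.3 ± 0.39 (*smad3.L*). With the copies summed, stage 10.5 gave 0.39 ± 0.14 for *smad1* and 0.45 ± 0.21 for *smad2*. The sums of *smad3* and *smad9* gave 1.19 ± 0.36 and 0.63 ± 0.45. None of these sums was called (adjusted p 0.058 to 0.38, *edgeR*). At stage 10.5, 3 of the 8 had an unadjusted *edgeR* p under 0.05, against 7752 of all 25448 genes. None of the 8 had an adjusted p under 0.05, and *DESeq2* called 1 of them, *smad1.S*. Under library totals *smad1.S* and *smad3.L* were called, with a median of 0.98. The size and the calls moved with single libraries. Fits without 1 library share their other libraries, so a direction kept across them is no separate support. Levels of *smad1.S*, singled out after its values were seen, were 37.1 and 47.8 CPM in M/Z embryos at stage 10.5, against 28.7 and 12.3 CPM in +/Z embryos. *smad2.S* had 14.6 and 27.6 CPM in M/Z, against 15.7 and 6.49 CPM in +/Z embryos, with overlap.

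In both genes +/Z replicate 2 was the lowest of the 4 stage 10.5 libraries, as it was for *smad9.L*, *smad9.S*, *smad3.S* and *smad3.L*. The .L share in that library was 91.0% for *smad1* and 79.9% for *smad2*, against 76.3% and 50.4% in +/Z replicate 1. In M/Z embryos it was 77.9% and 72.3% for *smad1* and 57.6% and 47.7% for *smad2*. The part of these shares in the differences of *smad1.S* and *smad2.S* was not tested. Without M/Z replicate 1, all 8 were above 0 with a median of 0.73, and *smad1.S*, *smad2.S* and *smad3.L* were called. Without M/Z replicate 2, 7 of the 8 were above 0 with a median of 0.75 and no call. Without +/Z replicate 2, 7 of the 8 were above 0 with a median of 0.46 and no call. Without +/Z replicate 1, 7 of the 8 were above 0 with a median of 1.70, and 4 of them were called (*smad1.S*, *smad2.S*, *smad9.L* and *smad9.S*). Across the 43 genes, +/Z replicate 2 was below +/Z replicate 1 at stage 10.5 in 30 (69.8%), against 47.2% of all genes tested. The other groups were also uneven. Replicate 2 was below replicate 1 in 34.9% of the 43 in M/Z at stage 10.5, against 49.7% of all genes. At stage 9 it was below in 65.1% in M/Z, against 48.2%, and in 27.9% in +/Z embryos, against 49.4%.

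The common Smads were not called between genotypes. The 4 copies of *smad4.1* and *smad4.2* had log2 fold changes between -0.59 and 0.02 at stage 9 and between -0.71 and 0.19 at stage 10.5. *smad4.1.S*, singled out after its values were seen, differed more between replicates than between genotypes, with 46.7 and 123 CPM in M/Z, against 193 and 62.9 CPM in +/Z embryos at stage 9.

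The inhibitory Smads included 2 of the 6 genes called over the mean of both stages. *smad6.S*, whose product acts mainly on the BMP branch, was 53.5 and 56.4 CPM in M/Z, against 28.9 and 33.6 CPM in +/Z, at stage 9. The stage 10.5 levels were 26.4 and 26.5 CPM in M/Z embryos, against 20 and 20.3 CPM in +/Z embryos. The groups did not overlap at either stage. It was 1.76-fold higher in M/Z at stage 9 (0.82 ± 0.18, adjusted p = 0.016, *edgeR*), was not called at stage 10.5 (0.39 ± 0.18, adjusted p = 0.17) and was 1.52-fold higher over the mean of both (0.60 ± 0.13, adjusted p = 0.0076). The stage 9 call was lost without any one of the 4 stage 9 libraries (0.72 to 0.92, adjusted p 0.079 to 0.17), whereas the call over both stages held without each of the 8 libraries.

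The homeolog *smad6.L* was 37.7 and 42.1 CPM in M/Z, against 25.8 and 28.4 CPM in +/Z embryos at stage 9, and the 2 genotypes were apart there (0.56 ± 0.19, adjusted p = 0.095). At stage 10.5 its levels were 24.4 and 21.4 CPM in M/Z, against 24.5 and 21.4 CPM in +/Z embryos (-0.00 ± 0.19, adjusted p = 0.99). The sum of both *smad6* copies was called at stage 9 (0.70 ± 0.16, adjusted p = 0.022) and over the mean of both (0.44 ± 0.12, adjusted p = 0.02). The second *smad6* gene, *smad6.2.L*, had 8.99 and 8.69 CPM in M/Z, against 4.77 and 5.23 CPM in +/Z embryos at stage 9 (0.82 ± 0.28, adjusted p = 0.088) and overlapped at stage 10.5.

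*smad7.S*, whose product blocks both branches, was 13.8 and 14.4 CPM in M/Z, against 8.61 and 8.86 CPM in +/Z, at stage 9. The stage 10.5 levels were 46.0 and 39.2 CPM in M/Z embryos, against 29.4 and 20.8 CPM in +/Z embryos. All M/Z libraries were above all +/Z libraries of the same stage. It missed the threshold at stage 9 (0.69 ± 0.23, adjusted p = 0.079) and at stage 10.5 (0.76 ± 0.22, adjusted p = 0.0503) and was 1.65-fold higher in M/Z over the mean of both (0.73 ± 0.16, adjusted p = 0.0092, *edgeR*). That call held without each of the 8 libraries in turn (0.62 to 0.87).

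The homeolog *smad7.L* was 13.5 and 12 CPM in M/Z, against 12.4 and 14.7 CPM in +/Z embryos at stage 9, with overlap, and 40.9 and 37.5 CPM in M/Z, against 30.3 and 21.7 CPM in +/Z embryos at stage 10.5, without overlap. Neither difference was called (-0.08 ± 0.23 and 0.59 ± 0.22, adjusted p = 0.86 and 0.11). Summed over both copies, *smad7* was called over the mean of both stages (0.47 ± 0.14, adjusted p = 0.039).

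*smurf1.L*, whose product ubiquitinates BMP Smads and receptors, was the gene of the set called at both stages and over their mean. Its level at stage 9 was 156 and 144 CPM in M/Z, against 80.6 and 88.9 CPM in +/Z embryos. At stage 10.5 it was 82.8 and 106 CPM in M/Z embryos, against 58.7 and 57.8 CPM in +/Z embryos. No M/Z library overlapped a +/Z library of the same stage. It was 1.77-fold higher in M/Z at stage 9 (0.82 ± 0.17, adjusted p = 0.012, *edgeR*), 1.62-fold at stage 10.5 (0.70 ± 0.17, adjusted p = 0.026) and 1.69-fold over the mean of both (0.76 ± 0.12, adjusted p = 0.0016).

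When 1 library was left out, the log2 fold change of *smurf1.L* lay between 0.76 and 0.89 at stage 9, between 0.52 and 0.87 at stage 10.5 and between 0.67 and 0.84 over both stages. The call over both stages held each time. The stage 9 call was lost without any one of the 4 stage 9 libraries (adjusted p 0.065 to 0.12). The stage 10.5 call held only without M/Z stage 10.5 replicate 1, and otherwise had an adjusted p between 0.052 and 0.13. The homeolog *smurf1.S* was 60.8 and 55.0 CPM in M/Z, against 43.7 and 48.9 CPM in +/Z embryos at stage 9, and 47.9 and 54.9 CPM in M/Z, against 33.7 and 45.0 CPM in +/Z embryos at stage 10.5. It did not overlap between genotypes at either stage but was not called (0.35 ± 0.14 over both stages, adjusted p = 0.091). The sum of both copies was called at stage 9 (0.66 ± 0.16, adjusted p = 0.025), at stage 10.5 (0.58 ± 0.16, adjusted p = 0.043) and over both (0.62 ± 0.11, adjusted p = 0.0038). The related ligase gene *smurf2.S* differed by 0.20 ± 0.16 at stage 9 and 0.15 ± 0.16 at stage 10.5, and was not called.

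The Ski co-repressors were not called in any comparison of genotypes with TMM factors and all 8 libraries. *skil.S* was called higher in M/Z under library totals, both at stage 10.5 and over the stages' mean, and over that mean without +/Z stage 10.5 replicate 1. The 4 copies of *ski* and *skil* had log2 fold changes between -0.39 and 0.27 at stage 9 and between -0.13 and 0.44 at stage 10.5. *skil.S* was the one of the 4 with both M/Z libraries above both +/Z libraries at each stage.

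Such gaps between the groups were counted over the 43 genes and over the whole table. At stage 9 both M/Z libraries were above both +/Z libraries in 16 genes (37.2%, against 31.8% of all genes) and below them in 12 (27.9%, against 31.8%). At stage 10.5 they were above in 13 (30.2%, against 26.7%) and below in 8 (18.6%, against 27.1%). They were above at both stages in 8 genes (18.6%, against 16.3%).

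**Figure D2:**
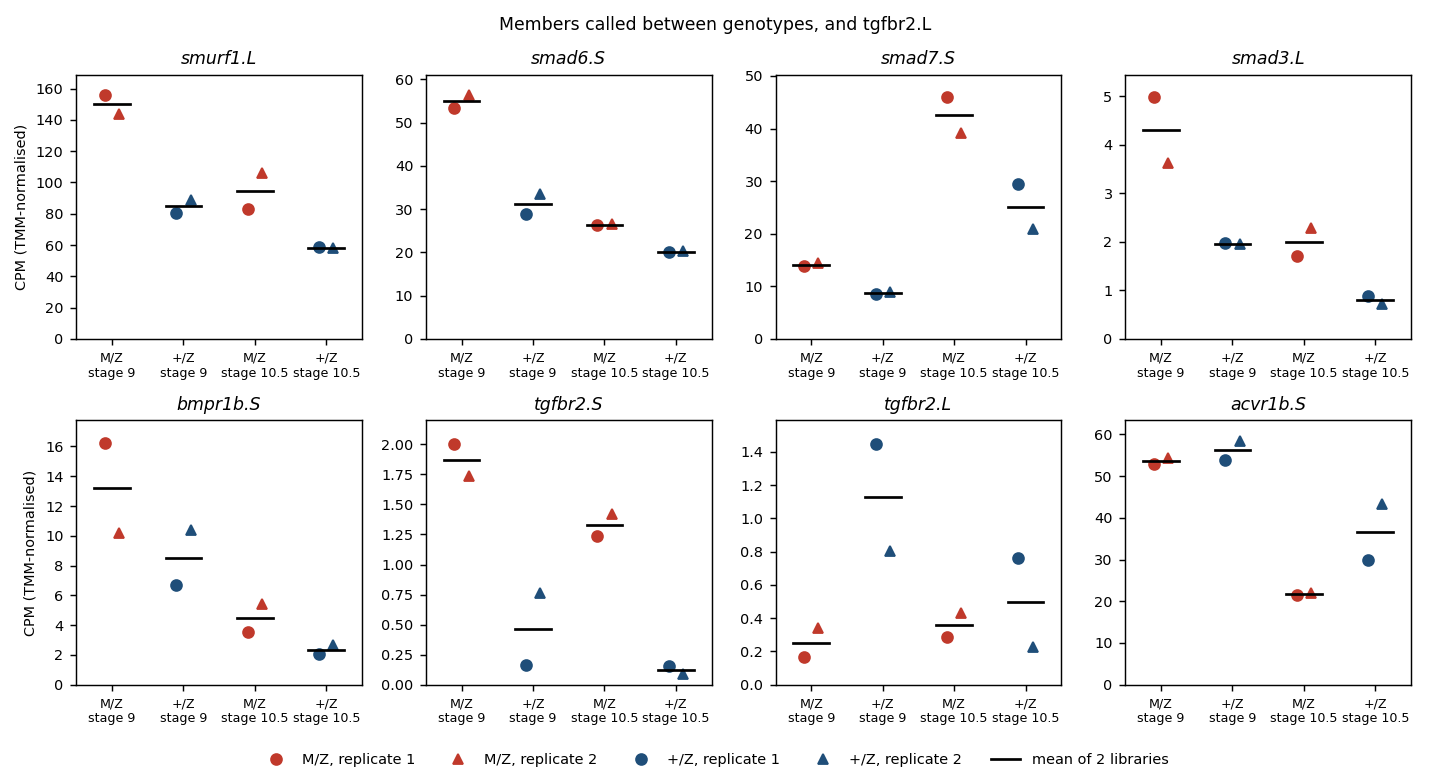
Level in CPM (vertical axis, from 0) of the 7 genes called in a comparison of genotypes and of *tgfbr2.L*, with 1 point per library (red for M/Z, blue for +/Z, circle for replicate 1, triangle for replicate 2) and a line for the mean of the 2 libraries. For *smurf1.L*, *smad6.S*, *smad7.S*, *smad3.L* and *tgfbr2.S* both M/Z points lie above both +/Z points at each stage. *tgfbr2.L* shows the reverse at stage 9, and both M/Z points of *acvr1b.S* lie below both +/Z points at stage 10.5.

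The difference between genotypes itself was not shown to change between the stages for any of the genes. The interaction test of *edgeR* called 0 of 43, against 0.0472% of all genes tested. An unadjusted p under 0.05 was found in 5 of the 43, against 2844 of all 25448 genes. *DESeq2* also called 0 (1.18% of all genes), and without the filter on low counts *edgeR* called 4 (*bmpr2.S*, *smad2.S*, *smad1.S* and *smad9.S*), against 2.37% of all genes then tested.

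Shares of the .L copy were compared for the 15 of 20 homeolog pairs with at least 100 summed counts in every library. The shares of M/Z and +/Z libraries did not overlap in 7 of 15 pairs at stage 9, against 70.3% of 4063 pairs in the whole table. At stage 10.5 they did not overlap in 4 of 15, against 54.1%. *skil*, *smad6* and *smad7* were apart at both stages. The .L share of *skil* was 22.9% and 21.6% in M/Z, against 29.9% and 31.4% in +/Z, at stage 9, and 16.4% and 19.9% in M/Z, against 24.9% and 24.6% in +/Z, at stage 10.5. That of *smad7* was 49.4% and 45.6% in M/Z, against 59.0% and 62.3% in +/Z, at stage 9, and lay within 47.1% to 51.0% in all 4 libraries at stage 10.5. With the copies listed under each symbol summed, 24 symbols were tested. The test called 2 at stage 9 (11.6% of all), 1 at stage 10.5 (12.7%), 4 over the mean of both (23.9%) and 0 for the difference between stages (0.048%). Between the stages it called 12 in M/Z (31.6%) and 16 in +/Z embryos (46.1%). For *bmpr2*, *tgfbr3*, *tgfbr1* and *smurf2* only 1 copy is listed by symbol, so the sum is that copy alone. Copies listed only by locus number, including ones of *bmpr2*, *tgfbr3* and *smad4.2*, were not added.

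**Figure D3:**
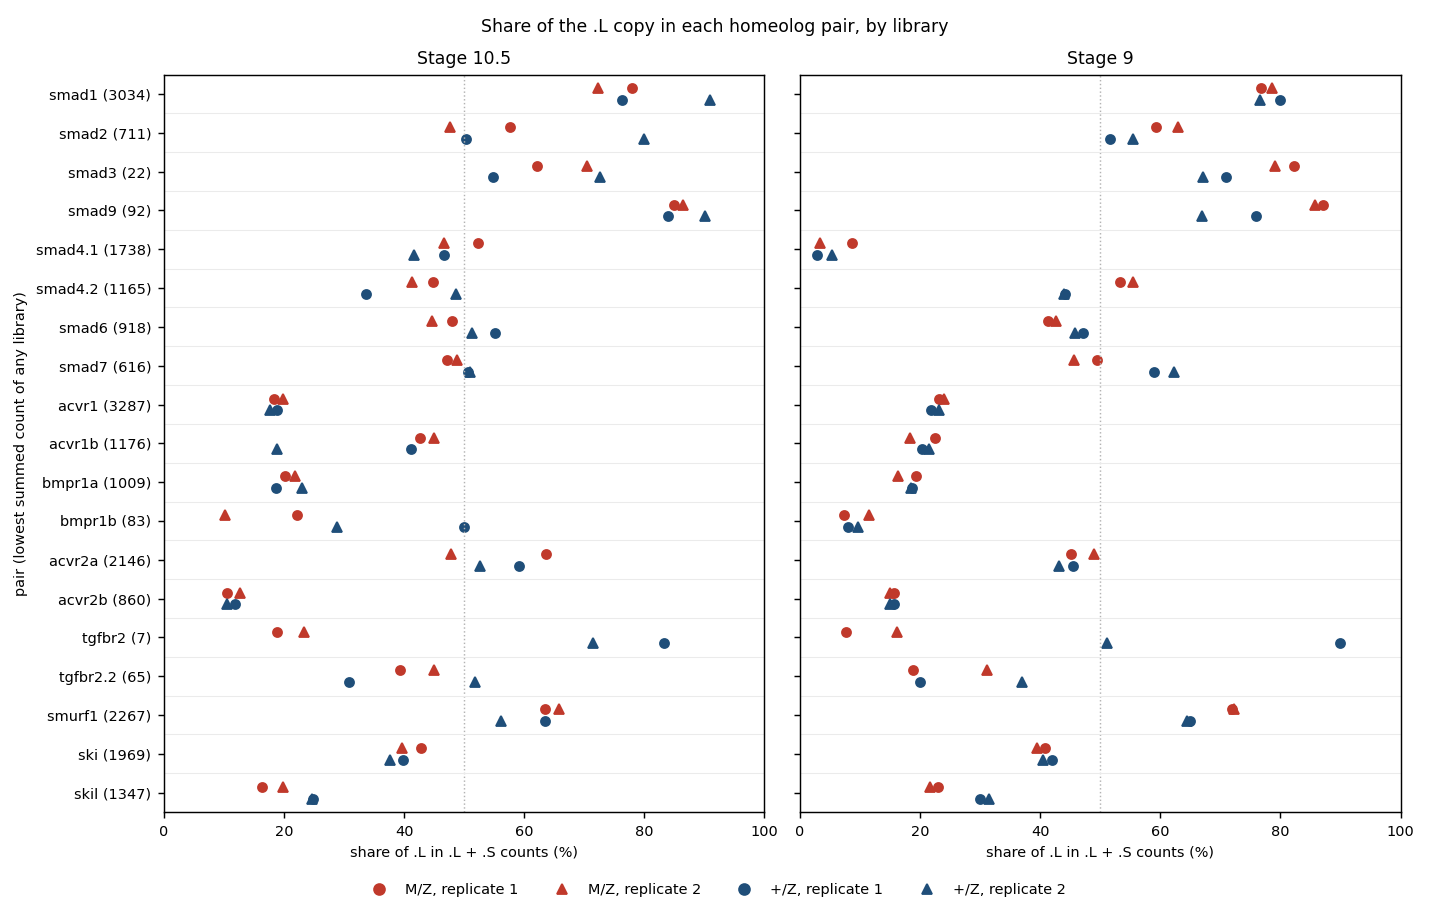
Share of the .L copy in the summed .L and .S counts (horizontal axis, percent) of 19 homeolog pairs, with 1 point per library, at stage 10.5 (left) and stage 9 (right). The number after each symbol is the lowest summed count of any library. *tgfbr2* shows M/Z and +/Z apart at both stages, at a lowest summed count of 7, and *smad4.1* has a share of 41.6% to 52.4% at stage 10.5 and of 2.74% to 8.71% at stage 9.

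Between the stages the genes changed more, and mostly downwards. In M/Z embryos 3 of 43 genes rose and 16 fell from the blastula to the gastrula, and in +/Z embryos 5 rose and 19 fell. The share called was 44.2% in M/Z embryos, against 32.3% of all genes, and 55.8% in +/Z embryos, against 46.5% of all genes. The share that fell was 37.2% in M/Z, against 15.6% of all genes, and 44.2% in +/Z, against 23.2% of all genes. The median log2 fold change of the 43 genes was -0.33 in M/Z, against -0.62 in +/Z, beside 0.02 and 0.01 over all genes. Under library totals the median of all genes moved by -0.21 in M/Z and by -0.32 in +/Z embryos, and 37.5% and 34.4% of all calls were then rises, against 51.6% and 50.1% with TMM. The 43 genes then gave 3 rises and 18 falls in M/Z and 4 rises and 22 falls in +/Z embryos.

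The counts between the stages also changed when 1 library was left out. In M/Z embryos fewer genes were called even without either +/Z stage 9 library, while their median stayed at -0.33. The share of all genes called in these fits is not given here, and whether the changes are particular to the 43 genes was not tested. In M/Z embryos the count of 19 became 9 without M/Z stage 9 replicate 1, 11 without M/Z stage 9 replicate 2 and 12 without M/Z stage 10.5 replicate 1. In +/Z embryos the count of 24 became 13 without +/Z stage 9 replicate 2. At stage 10.5, M/Z replicate 2 had moved less far from stage 9 than M/Z replicate 1 in 21 of the 24 genes called in +/Z embryos (87.5%), the same share as over all 11833 genes called.

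**Figure D4:**
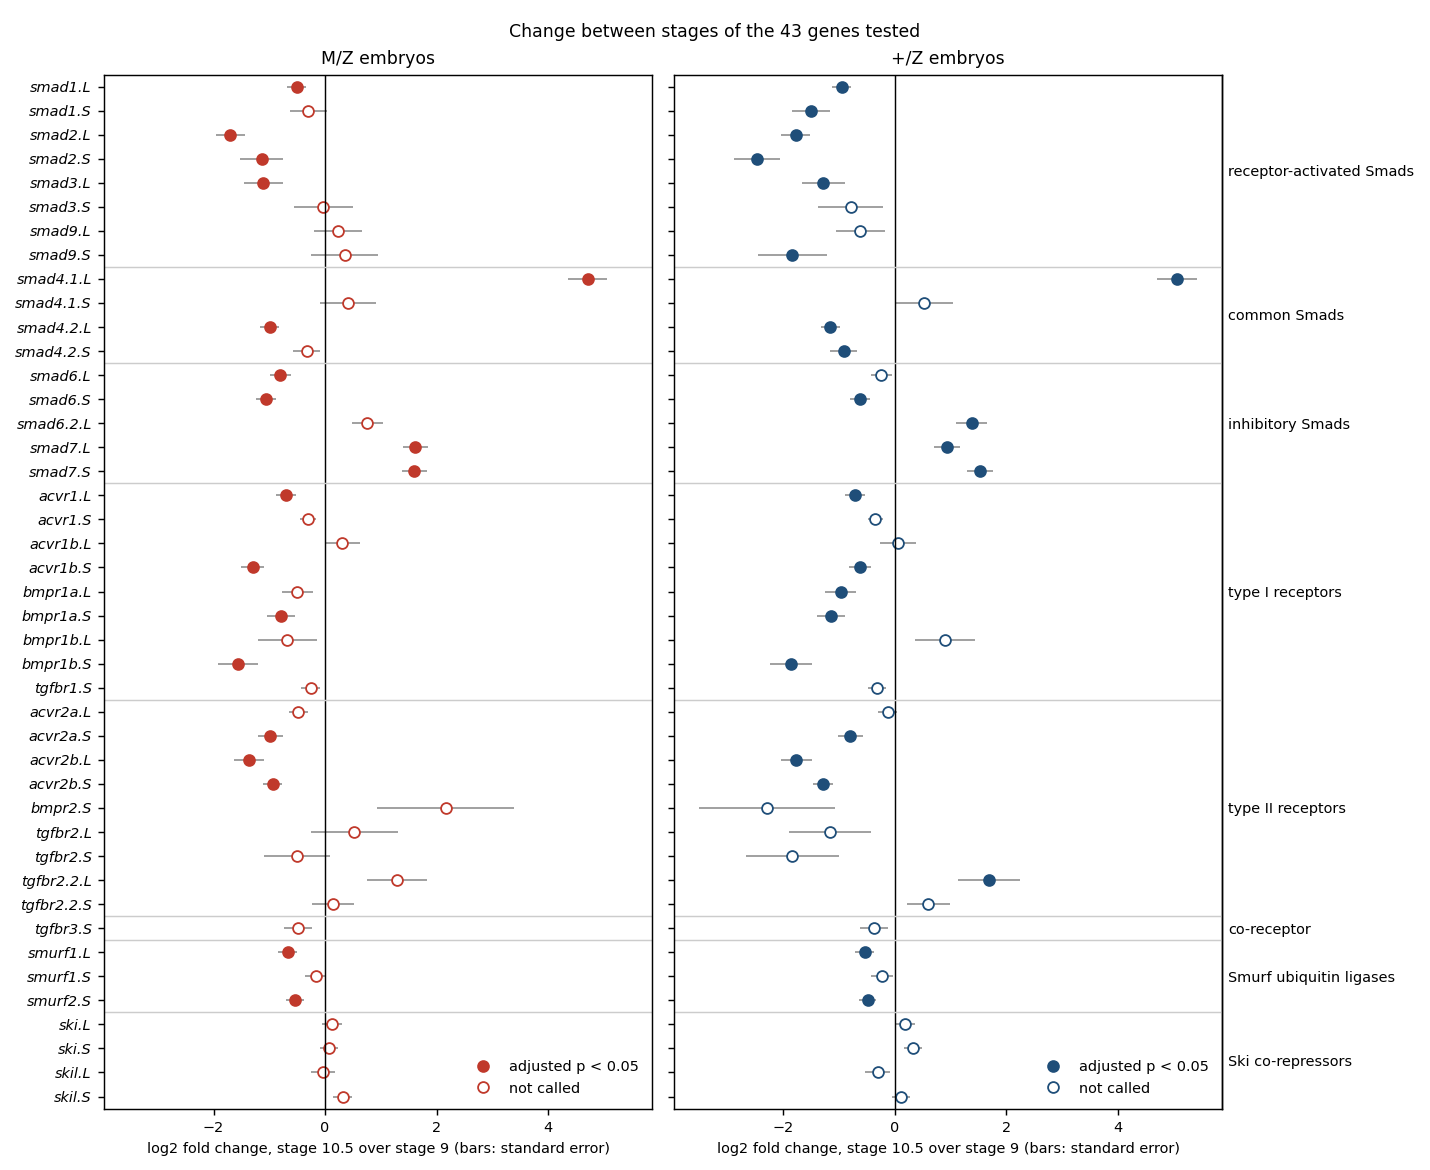
Log2 fold change of stage 10.5 over stage 9 (horizontal axis) for each of the 43 genes tested, in M/Z embryos (left) and +/Z embryos (right), with bars for the standard error of the fit and filled points for an adjusted p under 0.05. Most filled points lie left of 0. *smad4.1.L*, *smad7.L* and *smad7.S* are the filled points right of 0 in both panels.

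Of the receptor-activated Smads, 4 of 8 fell in M/Z and 6 of 8 fell in +/Z embryos, and none rose. *smad2*, the main carrier of Nodal signals, fell in both copies. *smad2.L* was 19.8 and 25.2 CPM at stage 10.5 and 70.3 and 75.7 CPM at stage 9 in M/Z embryos, and 16.0 and 25.8 CPM at stage 10.5 and 62.2 and 80.9 CPM at stage 9 in +/Z embryos. It was 3.25-fold lower at stage 10.5 in M/Z (-1.70 ± 0.26, adjusted p = 0.0013, *edgeR*) and 3.43-fold lower in +/Z (-1.78 ± 0.26, adjusted p = 0.00056). The stages did not overlap in either genotype, and the calls held without each of the 8 libraries, as did those of *acvr2b.L*, *acvr2b.S*, *smad4.2.L*, *smad4.1.L* and *smad7.S* below.

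*smad2.S* was 14.6 and 27.6 CPM at stage 10.5 and 48.3 and 44.8 CPM at stage 9 in M/Z embryos, and 15.7 and 6.49 CPM at stage 10.5 and 58.3 and 64.8 CPM at stage 9 in +/Z embryos. It was 2.21-fold lower at stage 10.5 in M/Z (-1.14 ± 0.39, adjusted p = 0.0465) and 5.53-fold lower in +/Z (-2.47 ± 0.41, adjusted p = 0.0011). The M/Z call was lost without M/Z stage 9 replicate 1 or 2 (adjusted p = 0.17 and 0.11), without M/Z stage 10.5 replicate 1 (-0.76, adjusted p = 0.23) and without either stage 9 +/Z library (adjusted p = 0.074 and 0.073), and also with a block for the replicate number (adjusted p = 0.058) and with a minimum log2 fold change of 0.5 (adjusted p = 0.12). With both copies summed, *smad2* fell in both genotypes (-1.46 ± 0.21, adjusted p = 0.0011 in M/Z, and -2.07 ± 0.22, adjusted p = 0.00011 in +/Z, *edgeR*). The other falls of these Smads in +/Z embryos were of *smad1.L*, *smad1.S*, *smad3.L* and *smad9.S*, and in M/Z embryos of *smad1.L* and *smad3.L*. They lay between -1.84 and -0.95 in +/Z and at -0.51 and -1.11 in M/Z embryos.

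The .L copies of the 2 common Smad genes differed in their course. *smad4.2.L* was 27.2 and 28.9 CPM at stage 10.5 and 53.2 and 58.1 CPM at stage 9 in M/Z embryos, and 23.6 and 25.7 CPM at stage 10.5 and 55.8 and 54.3 CPM at stage 9 in +/Z embryos. It fell in both genotypes (-0.99 ± 0.17, adjusted p = 0.0026 in M/Z, and -1.16 ± 0.17, adjusted p = 0.00064 in +/Z). The homeolog *smad4.2.S* fell in +/Z embryos (-0.92 ± 0.25, adjusted p = 0.012) and was not called in M/Z embryos (-0.33 ± 0.24, adjusted p = 0.34). A further copy named *smad4.2.S*, listed only by locus number, was not called (-0.47 ± 0.21, adjusted p = 0.12 in M/Z, and 0.19 ± 0.21, adjusted p = 0.49 in +/Z, *edgeR*). Without that copy, the sum of the .L and .S copies listed by symbol fell in both genotypes (-0.65 ± 0.18, adjusted p = 0.019 in M/Z, and -1.03 ± 0.18, adjusted p = 0.0013 in +/Z). *smad4.1.L* instead was 136 and 89.9 CPM at stage 10.5 and 4.46 and 4.14 CPM at stage 9 in M/Z embryos, and 189 and 110 CPM at stage 10.5 and 5.45 and 3.47 CPM at stage 9 in +/Z embryos. It had the largest rise of the set, 26.2-fold in M/Z (4.71 ± 0.35, adjusted p = 4e-05, *edgeR*) and 33.4-fold in +/Z (5.06 ± 0.36, adjusted p = 2.4e-05).

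The homeolog *smad4.1.S* did not show such a rise. Its levels at stage 10.5 were 123 and 103 CPM in M/Z, against 216 and 154 CPM in +/Z embryos, and those at stage 9, given above, spanned a wide range within each genotype. It changed by 0.41 ± 0.51 in M/Z, against 0.53 ± 0.51 in +/Z, and was not called. Summed over both copies, *smad4.1* changed by 1.33 ± 0.51 in M/Z (adjusted p = 0.071) and by 1.32 ± 0.51 in +/Z embryos (adjusted p = 0.056). The rise of *smad4.1.L* was thus not called once the copies were summed.

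The inhibitory Smads split by gene. *smad7.L* rose 3.07-fold in M/Z (1.62 ± 0.23, adjusted p = 0.00093) and 1.92-fold in +/Z embryos (0.94 ± 0.23, adjusted p = 0.0077). *smad7.S* rose 3.02-fold in M/Z (1.60 ± 0.23, adjusted p = 0.00093) and 2.88-fold in +/Z embryos (1.53 ± 0.23, adjusted p = 0.00068). The levels given above show that both stage 10.5 libraries of each genotype were above both of its stage 9 libraries, for both copies. The *smad7.L* call in +/Z embryos was lost without +/Z stage 9 replicate 1 (0.82, adjusted p = 0.076) and without +/Z stage 10.5 replicate 1 (0.67, adjusted p = 0.051).

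*smad6.2.L* was 18.4 and 11.6 CPM at stage 10.5 and 8.99 and 8.69 CPM at stage 9 in M/Z embryos, and 11.5 and 14.4 CPM at stage 10.5 and 4.77 and 5.23 CPM at stage 9 in +/Z embryos. It rose in +/Z embryos (1.38 ± 0.28, adjusted p = 0.0033) and was just short of the threshold in M/Z embryos (0.76 ± 0.27, adjusted p = 0.055). *smad6.S* fell in both genotypes (-1.06 ± 0.18, adjusted p = 0.0024 in M/Z, and -0.63 ± 0.18, adjusted p = 0.017 in +/Z), and *smad6.L* fell in M/Z embryos (-0.80 ± 0.19, adjusted p = 0.012) and had -0.24 ± 0.19 in +/Z embryos (adjusted p = 0.33). *smad6.2.S*, the homeolog of *smad6.2.L*, had 3 counts in 1 +/Z library at stage 10.5 and 0 in every other library.

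**Figure D5:**
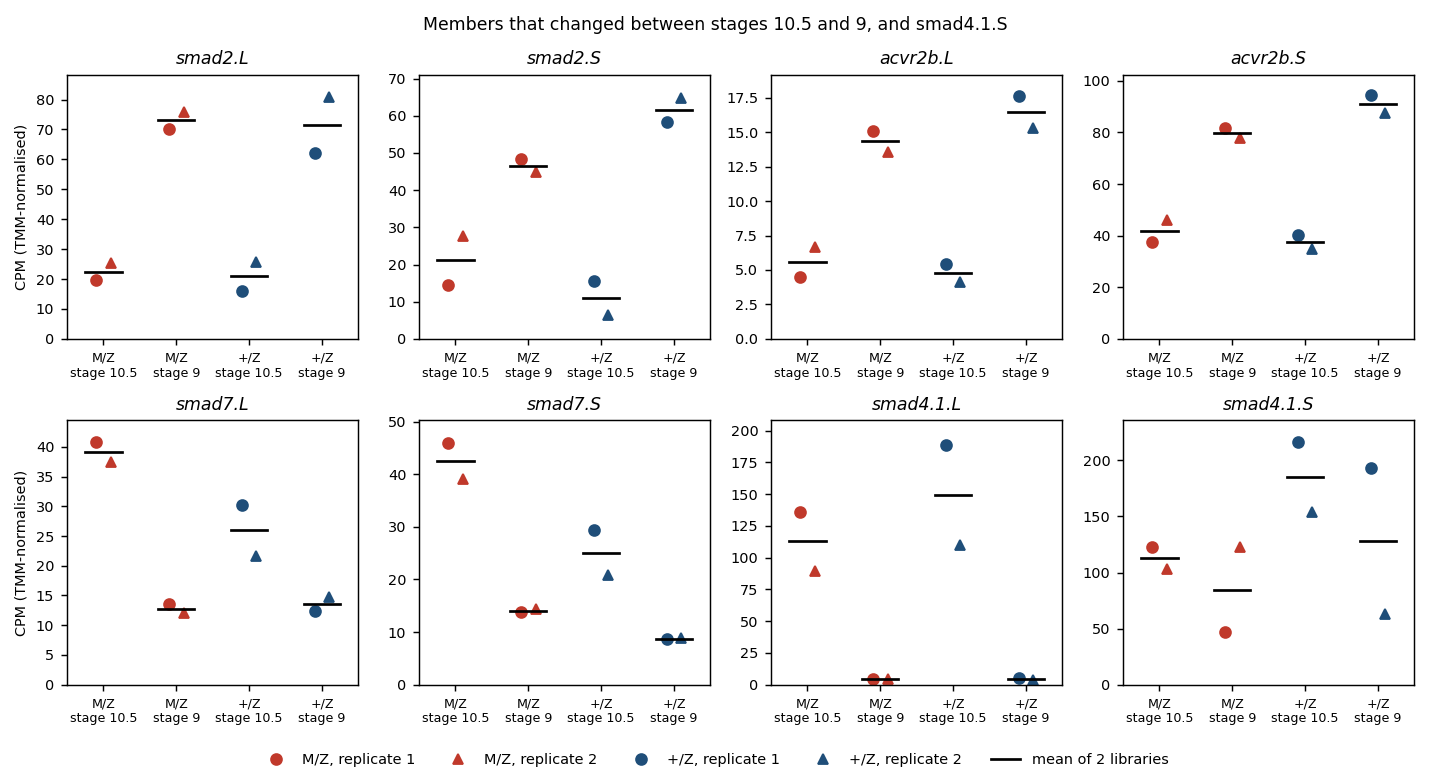
Level in CPM (vertical axis, from 0) of 7 genes called between the stages and of *smad4.1.S*, with 1 point per library (red for M/Z, blue for +/Z, circle for replicate 1, triangle for replicate 2) and a line for the mean of the 2 libraries. In each genotype, stage 10.5 lies below stage 9 for both copies of *smad2* and *acvr2b* and above it for both copies of *smad7* and for *smad4.1.L*. The points of *smad4.1.S* at stage 9 are far apart within each genotype.

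The receptors mostly fell or were not called. Of 9 type II receptor copies, 3 fell in each genotype and 1 was called higher at stage 10.5, in +/Z embryos. *acvr2b.S*, an activin and Nodal receptor, was 37.6 and 45.9 CPM at stage 10.5 and 81.7 and 78.0 CPM at stage 9 in M/Z embryos, and 40.3 and 34.9 CPM at stage 10.5 and 94.6 and 87.4 CPM at stage 9 in +/Z embryos. *acvr2b.L* was 4.47 and 6.69 CPM at stage 10.5 and 15.1 and 13.6 CPM at stage 9 in M/Z embryos, and 5.46 and 4.13 CPM at stage 10.5 and 17.6 and 15.3 CPM at stage 9 in +/Z embryos. The stages did not overlap for either copy in either genotype. The log2 fold change of *acvr2b.S* was -0.94 ± 0.17 in M/Z (adjusted p = 0.0037) and -1.28 ± 0.18 in +/Z embryos (adjusted p = 0.00044), and that of *acvr2b.L* was -1.36 ± 0.27 in M/Z (adjusted p = 0.0054) and -1.77 ± 0.28 in +/Z embryos (adjusted p = 0.00086). The third copy that fell in both genotypes was *acvr2a.S* (-0.98 ± 0.22 in M/Z and -0.80 ± 0.22 in +/Z embryos).

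*tgfbr2.2.L*, a second *tgfbr2* gene, had 61 and 68 counts at stage 10.5 and 26 and 34 at stage 9 in M/Z embryos, and 36 and 86 counts at stage 10.5 and 22 and 24 at stage 9 in +/Z embryos. It was called higher at stage 10.5 in +/Z embryos (1.69 ± 0.55, adjusted p = 0.03) and not in M/Z embryos (1.29 ± 0.54, adjusted p = 0.095), and the interaction was -0.40 ± 0.77. The +/Z call was lost under library totals (1.38, adjusted p = 0.064), without +/Z stage 10.5 replicate 2 (0.75, adjusted p = 0.29) and without either stage 9 +/Z library (1.5 and 1.86, adjusted p = 0.15 and 0.094).

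Of the 9 type I receptor copies tested, 4 fell in M/Z and 5 in +/Z embryos, and none rose. *acvr1.L*, *acvr1b.S*, *bmpr1a.S* and *bmpr1b.S* fell in both genotypes, and *bmpr1a.L*, a BMP receptor, was called in +/Z (-0.97 ± 0.28, adjusted p = 0.019) and not in M/Z embryos (-0.50 ± 0.28, adjusted p = 0.20). *bmpr1b.S* fell furthest, by 1.56 ± 0.36 on the log2 scale in M/Z and by 1.86 ± 0.37 in +/Z embryos. *smurf1.L* and *smurf2.S* also fell in both genotypes, with log2 fold changes between -0.67 and -0.49. The co-receptor *tgfbr3.S* and the 4 *ski* and *skil* copies were not called between the stages in either genotype, and their log2 fold changes lay between -0.48 and 0.32.

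Other genes of the pathway were counted by symbol for context, with the median log2 fold change of each list beside the 0.00 and 0.02 of all genes at stages 9 and 10.5. Of all genes tested, 6.01% were called higher in M/Z at stage 9 and 5.93% lower, and 6.68% higher and 6.39% lower at stage 10.5. Of 25 tested copies of ligand genes, none was higher in M/Z embryos and 4 were lower at stage 9 (median -0.68), and 2 higher and 3 lower at stage 10.5 (median -0.12). They included *nodal1.L*, a mesoderm and endoderm inducer, which was lower at both stages (-2.16 ± 0.32 and -1.03 ± 0.28, adjusted p = 0.0023 and 0.039, *edgeR*). Of 19 copies of Nodal target genes, none was higher in M/Z embryos and 5 were lower at stage 9 (median -0.88), and 0 higher and 7 lower at stage 10.5 (median -0.72). Among them *mixer.S*, an endoderm homeobox gene, was lower at both stages (-1.67 ± 0.22 and -1.03 ± 0.20). Its homeolog *mixer.L*, the more abundant copy at stage 10.5, was not called at either stage (-0.45 ± 0.28 and -0.11 ± 0.25, adjusted p = 0.36 and 0.8, *edgeR*).

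Of 26 copies of BMP target genes, none was higher in M/Z embryos and 3 were lower at stage 9 (median -0.45), and 4 higher and 0 lower at stage 10.5 (median 0.15). Among them *szl.L*, which encodes a secreted feedback inhibitor of BMP signalling, was higher at stage 10.5 (1.04 ± 0.17, adjusted p = 0.005). Of 52 copies of genes for regulators of receptors and Smads, 0 were higher and 2 lower at stage 9 (median -0.07), and 5 higher and 2 lower at stage 10.5 (median 0.07). Of 19 copies of nuclear partners of Smads, 1 was higher and 0 lower at stage 9 (median -0.16), and 1 higher and 1 lower at stage 10.5 (median 0.11).

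Between the stages the lists ran in different directions, while of all genes 16.7% rose and 15.6% fell in M/Z embryos, and 23.3% rose and 23.2% fell in +/Z embryos. In M/Z embryos 18 of 19 Nodal target copies and 24 of 26 BMP target copies rose, with medians of 3.64 and 3.90 on the log2 scale, and 3 of 52 regulator copies rose and 18 fell, with a median of -0.30. In +/Z embryos all 19 Nodal target copies and 23 of 26 BMP target copies rose, with medians of 3.45 and 3.52, and 4 of 52 regulator copies rose and 26 fell, with a median of -0.59. The receptor-activated Smads had medians of -0.41 in M/Z and -1.39 in +/Z embryos, and the type I receptors of -0.68 in M/Z and -0.62 in +/Z embryos, with no rise called in either class.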

How the data were processed

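Poly(A) RNA-seq libraries from whole *X. laevis* embryos were made with a stranded mRNA kit and sequenced on 1 lane. The deposited values are expected counts per gene. The submitters' processing notes name genome version 9.2, CSBB v3.0, *bowtie2* and *RSEM* 1.3.0, which shares reads between similar transcripts. The annotation and the strand setting of the counting are not given in the sources used here, so overlapping genes were not checked.

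The deposited expected counts were whole numbers and were used as they are, and genes with low counts were removed with *edgeR*'s filterByExpr. TMM factors and a quasi-likelihood model with 1 coefficient per group were fitted to all 8 libraries in *edgeR* 4.0.16 (R 4.3.3). Benjamini-Hochberg adjustment ran over 25448 genes, genes under 0.05 were called, and the script was tested on simulated data. M/Z was set against +/Z at each stage, over the mean of both and as a difference between stages, and stage 10.5 against stage 9 in each genotype. The s.e. is the log2 fold change over the square root of its F statistic, and 3 counts in a library were taken as the floor, which covers counting error only.

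Named by rule were genes called between genotypes with their homeologs, the 5 with the smallest p in each direction between stages in +/Z, and those at 3 counts or below in both libraries of a group. The genes and lists were chosen with earlier results of these data known. Alternatives were other size factors, other filters, *DESeq2* 1.42.0, a block for the replicate number, a minimum fold change, summed homeologs and leaving out each library. Replicate numbers pair nothing in the labels.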

Additional observations from a re-analysis of the deposited data

How the results depend on the processing

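At stage 9, 2 genes were called between genotypes, against 7 without the filter on low counts (11.4% of all genes), 12 with only the 4 libraries compared, where 31.0% of all genes were called, 0 with a minimum log2 fold change of 0.5 and 0 to 5 without 1 library. At stage 10.5, 3 were called, against 7 under library totals (14.8% of all genes), 9 without the filter (14.2%), 5 with *DESeq2* (15.7%), 1 with only the 4 libraries compared (5.08% of all genes), 1 with the minimum fold change, 1 of 24 symbols with homeologs summed and 0 to 7 without 1 library. Over the mean of both stages, 6 were called, where 6110 of all 25448 genes were. Under library totals it was 10, where 6484 of all genes were called, and with the minimum fold change 2. The difference between stages gave 0 calls, against 4 without the filter (2.37% of all genes). Between the stages, 19 genes were called in M/Z embryos, against 11 with the minimum fold change, 12 symbols with homeologs summed and 9 to 21 without 1 library, and 24 in +/Z embryos, against 13 with the minimum fold change and 13 to 24 without 1 library. A minimum fold change is a stricter test, and summed homeologs give 24 symbols in place of 43 genes. Of the stage 10.5 calls, *tgfbr2* and *acvr1b* lost theirs when summed (1.42 and -0.42, adjusted p = 0.092 and 0.11, *edgeR*), and *smurf1* kept its call. The causes of the changed counts were not tested. Shares over all genes are not given for the minimum fold change, the block for the replicate number or the fits without 1 library. Those counts are thus not read as particular to these genes. Of 485 values of single genes under an alternative, 421 kept direction and call, 64 lost the call and 0 changed direction. Only results called in the main fit of these data were followed, so this agreement was partly set in advance. Calls between genotypes were lost more often than calls between the stages.

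With a block for the replicate number, 2, 3, 6 and 0 genes were called in the comparisons of genotypes, 17 between the stages in M/Z and 24 in +/Z embryos. Among the genes named by rule, the block ended 1 call, that of *smad2.S* between the stages in M/Z embryos (-1.14, adjusted p = 0.058). Deviations of same-numbered libraries correlated between -0.132 and 0.173, so the numbers were not taken as pairs. With a minimum of 20 summed counts, the .L shares did not overlap in 9 of 19 homeolog pairs at stage 9, against 67.7% of 4703 pairs. At stage 10.5 the count was 5 of 19, against 53.1%.

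*tgfbr2*, *bmpr2.S*, *smad3.S* and *bmpr1b.L* had low counts, and the sharing of reads between homeologs could not be checked without sequences.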

Other observations

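RefSeq (assembly 10.1) gives symbols of the same families to 4 identifiers that the count table lists only by locus number, and these were not among the 47 genes. The copy named *tgfbr3.L* had 104 and 61 counts in M/Z, against 25 and 17 in +/Z embryos at stage 9, and 39 and 66 in M/Z, against 7 and 4 in +/Z embryos at stage 10.5. All M/Z libraries were above all +/Z libraries of the same stage. Its log2 fold change was 1.52 ± 0.49 at stage 9 (adjusted p = 0.075, *edgeR*), 2.78 ± 0.57 at stage 10.5 (adjusted p = 0.013) and 2.15 ± 0.38 over the mean of both (adjusted p = 0.003), whereas *tgfbr3.S* was not called. The copy named *bmpr2.L* had 293 and 232 counts in M/Z, against 169 and 148 in +/Z embryos at stage 9, and 96 and 126 in M/Z, against 49 and 29 in +/Z embryos at stage 10.5. It was not called between genotypes (0.67 over the mean of both stages, adjusted p = 0.053) and fell between the stages by 1.02 in M/Z (adjusted p = 0.029) and by 1.79 in +/Z embryos on the log2 scale (adjusted p = 0.0018). A further copy named *smad4.2.S* was not called between genotypes (0.18 at stage 9 and -0.48 at stage 10.5) or between the stages. One named *acvr1c.S* did not pass the filter on low counts. These copies were looked up after the values of the 47 genes were seen.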
